A study of Mus musculus with 24 samples.

Results

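The miR-26 family of the mouse was examined on the Agilent miRNA array in 2 pools of reference RNA. The members were the array entries whose name was exactly mmu-miR-26a or mmu-miR-26b, with no star strand and no control spot, and they made up 2 of the 566 mouse miRNAs and 40 of the 11340 mouse miRNA spots on each array. Reference 1 (2 samples) was RNA of testicle, ovary and whole embryo of 10 to 12 days, mixed in equal amounts, and Reference 2 (2 samples) was RNA of liver, heart and lung, mixed in the same way. The pools were mixed by the authors from bought stocks of total mouse RNA that retained small RNAs, and strain, adult age and any treatment are not given in the sources used here. The series held 24 samples on 4 array platforms, and the 4 Agilent samples, hybridized in one color with the dye Cy3 on a single slide, were used here. The samples of a reference were aliquots of the same pool, so every p-value measures technical spread alone. A pool gives the average of its tissues, and fewer cells of a type and less RNA per cell cannot be told apart in it.

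A miRNA is a short RNA that guides a silencing complex to messenger RNAs, chiefly through its seed, the bases near its 5′ end. The miR-26 miRNAs are widely expressed in adult tissues and are cut from hairpins that lie within genes of the small C-terminal domain phosphatases, which remove phosphate from RNA polymerase II. They are known to repress the histone methyltransferase Ezh2 and cyclins of the G1 phase, and miR-26a is known for its loss in liver tumors and for its repression by the oncogenic transcription factor Myc.

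The mature sequences are shown because the array read both members with separate probes although they differ at few bases. They were taken from RefSeq (build GRCm38.p6), in which all 3 array names of the family had an entry, and the capitals mark the seed, bases 2 to 8 from the 5′ end.
mmu-miR-26a: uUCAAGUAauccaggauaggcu
mmu-miR-26b: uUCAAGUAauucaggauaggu
mmu-miR-26b*: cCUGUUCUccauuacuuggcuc
The first 2 shared their seed with each other and with no other of the 1679 mature names in the table. They were identical at 19 of 21 positions, with the substitutions C11U and C21U on going from miR-26a to miR-26b, and miR-26a had 1 base more at its 3′ end. No probe sequence was used here, and whether a probe of 1 member also bound the other was not tested. The star strand, cut from the other arm of the miR-26b hairpin, had another seed.

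Mouse has 3 loci for these RNAs, and their hairpins are shown with the mature 5′ arm in capitals, because miR-26a from 2 of them is the same molecule.
Mir26a-1: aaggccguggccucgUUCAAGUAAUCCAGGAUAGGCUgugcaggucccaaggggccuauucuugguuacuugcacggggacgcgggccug
Mir26a-2: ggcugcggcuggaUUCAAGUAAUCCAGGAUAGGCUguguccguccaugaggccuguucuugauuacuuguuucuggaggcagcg
Mir26b: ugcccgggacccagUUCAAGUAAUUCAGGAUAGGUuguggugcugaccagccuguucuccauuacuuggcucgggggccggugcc
Mir26a-1 lies at chr9:119031796-119031885 on the plus strand, within the bounds of Ctdspl (chr9:118926536-119044119). Mir26a-2 lies at chr10:126995530-126995613, also on the plus strand, within Ctdsp2 (chr10:126978717-126999975). Mir26b lies at chr1:74394310-74394394 on the plus strand, within Ctdsp1 (chr1:74391609-74397285). The array could therefore not separate miR-26a of Mir26a-1 from miR-26a of Mir26a-2, and a level of miR-26a is that of both loci. Whether a hairpin falls in an intron or an exon of its host was not analysed here.

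Both members were lower in Reference 1 than in Reference 2, by a small margin that the aliquots repeated closely. For miR-26a the median spot signal, in scanner units without background subtraction, was 984.5 and 1020.0 in the Reference 1 samples, against 1332 and 1354 in the Reference 2 samples. On the log2 scale after cyclic lowess, a normalization that fits each pair of arrays to each other along the signal range, miR-26a stood at 10.00 and 10.04 in Reference 1, against 10.28 and 10.27 in Reference 2. The gap between the groups was 0.23, and the largest distance between aliquots was 0.047. The difference, Reference 1 minus Reference 2, was -0.26 (SE 0.043, 95% interval -0.35 to -0.17), a ratio of 0.837, with an adjusted p of 4.84e-06 in limma's moderated test over the 566 mouse miRNAs.

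The median spot signal of miR-26b was 715.5 and 706.8 in the Reference 1 samples, against 911.5 and 910.5 in the Reference 2 samples. Its normalized log2 level was 9.46 and 9.45 in Reference 1, against 9.81 and 9.77 in Reference 2. Here the gap between the groups was 0.31, with at most 0.039 between aliquots. How many of all miRNAs separate with such a gap was not counted, so neither gap sets the family apart. The star strand of miR-26b, near the negative controls and not called, also separated, with a gap of 0.030. The difference was -0.33 (SE 0.045, 95% interval -0.43 to -0.24), a ratio of 0.793, with an adjusted p of 1.33e-07 in limma. Thus 2 of 2 members were called lower, where 28.3% of all mouse miRNAs tested were called lower, 29.9% higher and 58.1% in either direction at an adjusted p under 0.05. Among the 259 miRNAs well above background on at least 1 array these shares were 41.7% lower, 49.4% higher and 91.1% in either direction. A miRNA could enter that set through 1 reference alone. The Reference 1 samples had 234 and 242 miRNAs well above background, against 166 and 161 in the Reference 2 samples. Both members were above background on every array, and of the 144 such miRNAs 82 were called lower and 49 higher. A call of lower was thus common among measured miRNAs.

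**Figure D1:**
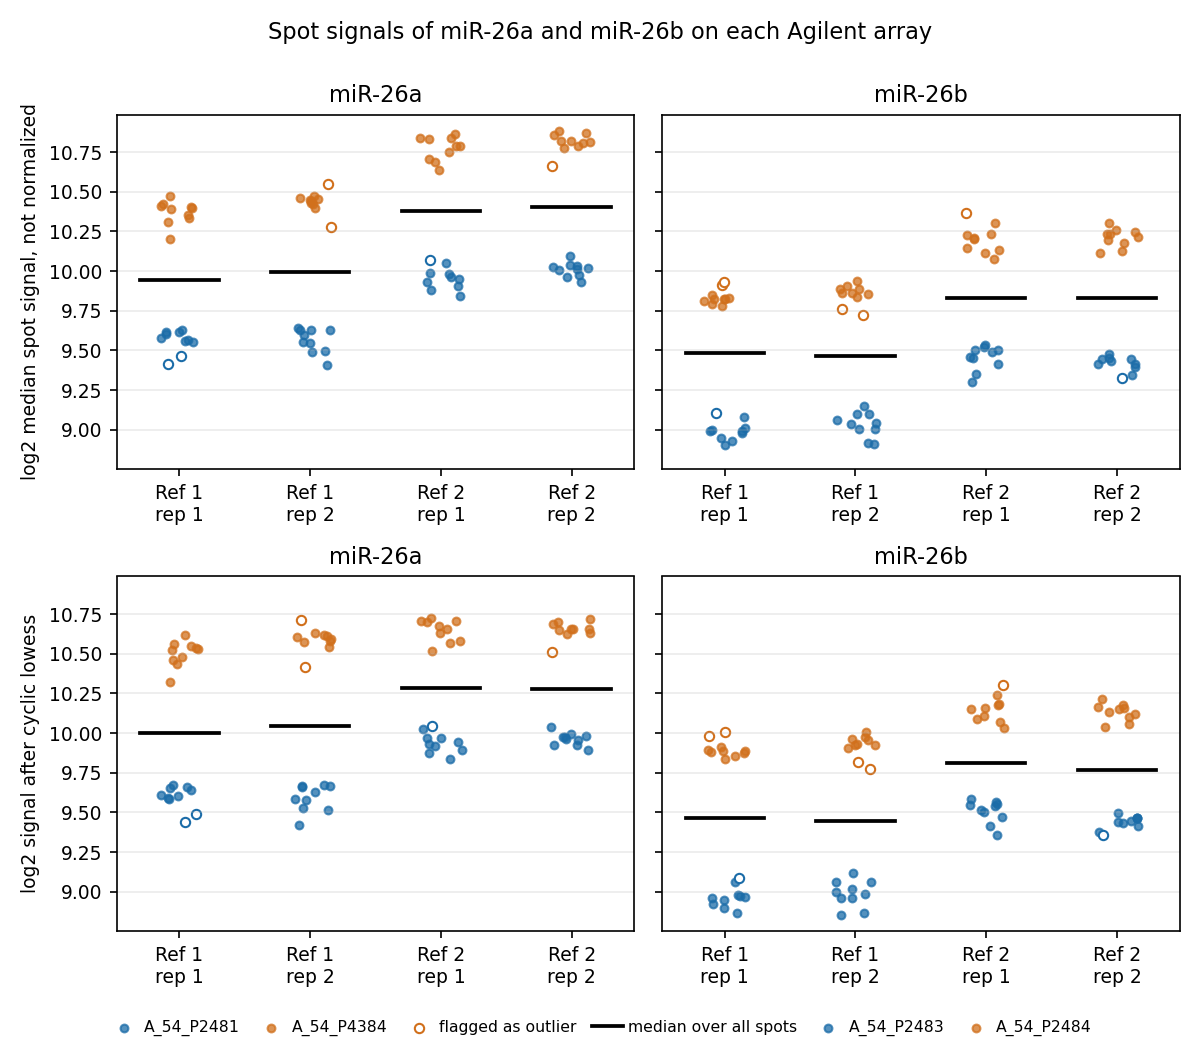
Spot signals of miR-26a (left) and miR-26b (right) on the Agilent arrays, with samples on the horizontal axis and log2 signal on the vertical axis, before normalization in the upper row and after cyclic lowess in the lower row. Each point is 1 spot, colors separate the probes of a member, open points were flagged as outliers by the scanner software, and the black bar is the median over the 20 spots. The bars of both Reference 1 samples lie below those of both Reference 2 samples in every panel, and each bar lies between the signals of the member's probes.

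Both members were measured far from the limits of the array. All 20 spots of each member on every array exceeded the present threshold, which was the trimmed mean of the 288 negative control spots plus 3 trimmed SD and lay between 48.7 and 54.3. The lowest miR-26a spot stood 13.0 and 13.9 times above that threshold in the Reference 1 samples and 17.6 and 18.0 times above it in the Reference 2 samples. The lowest miR-26b spot stood 9.07 and 9.86 times above it in Reference 1 and 12.1 and 11.8 times above it in Reference 2. No spot of either member was saturated.

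The star strand of miR-26b, the strand of the hairpin that usually is degraded, was near the negative controls. Its median signal was 44.5 and 41.3 in Reference 1, against 45.0 and 45.0 in Reference 2, and 0 of its 20 spots reached the threshold on any array. None of the arrays measured it well above background, and its difference of -0.044 had an adjusted p of 0.102 in limma. The star strands of the miR-26a hairpins were not among the array names.

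Each member was read by 2 probes with 10 spots each, which allowed the difference to be measured separately on each. For miR-26a, probe A_54_P2481 had median signals of 761 and 763.8 in Reference 1, against 992.8 and 1036 in Reference 2. Probe A_54_P4384 of the same miRNA had 1346 and 1392 in Reference 1, against 1770 and 1801 in Reference 2. All 20 Reference 1 spots of either probe were below the lowest Reference 2 spot of that probe. For miR-26b, probe A_54_P2483 had 509 and 525.5 in Reference 1, against 712 and 686.5 in Reference 2. Probe A_54_P2484 had 906.5 and 930.0 in Reference 1, against 1181 and 1198 in Reference 2. Again all 20 Reference 1 spots of each probe were below the lowest Reference 2 spot. Spots of a probe on an array share their sample, so these counts describe the arrays and give no test. Whether a probe of 1 member also bound the other was not tested, so the members may not be separate readings.

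Before normalization, the probes of the family gave nearly the same difference. It was -0.41 and -0.38 for the miR-26a probes A_54_P2481 and A_54_P4384, and -0.43 and -0.37 for the miR-26b probes A_54_P2483 and A_54_P2484. After cyclic lowess the values spread out, to -0.35 and -0.10 for the miR-26a probes and to -0.51 and -0.24 for the miR-26b probes, in the same order. The difference became smaller as the signal of the probe became larger. For A_54_P4384 the normalization moved the Reference 1 samples by 0.14 and the Reference 2 samples by -0.14 on average, and only 5 of its 20 Reference 1 spots then stayed below the lowest Reference 2 spot. For A_54_P2483 the Reference 1 samples moved by -0.036 and the Reference 2 samples by 0.036, and all 20 Reference 1 spots stayed below.

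**Figure D2:**
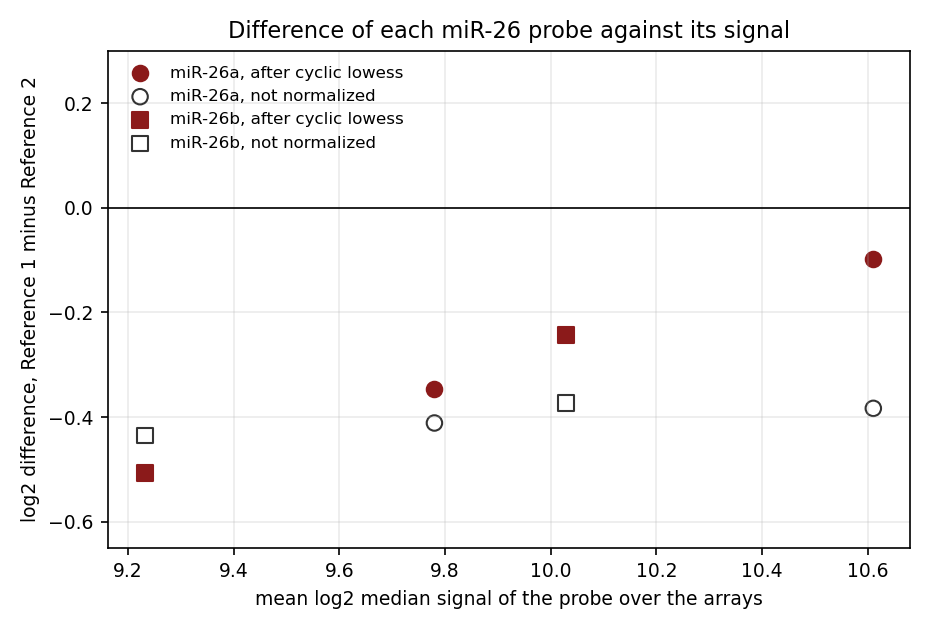
Log2 difference of each miR-26 probe, Reference 1 minus Reference 2 (vertical axis), against its mean log2 signal over the 4 arrays (horizontal axis). Filled symbols are values after cyclic lowess and open symbols are values before it, with circles for miR-26a and squares for miR-26b. The open symbols lie between -0.43 and -0.37, and the filled symbols run from -0.51 to -0.10 along the signal axis.

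Whether the members differed from each other in their response was asked of the distance between them within a sample. After normalization miR-26a minus miR-26b was 0.53 and 0.60 in Reference 1, against 0.47 and 0.51 in Reference 2. The means were 0.57 ± 0.046 in Reference 1 and 0.49 ± 0.023 in Reference 2 (SD, n = 2 each), and their difference was 0.077. An exact permutation test (two-sided) gave p = 0.333, which is the smallest p that 2 against 2 samples allow. The difference was -0.066 with no normalization. Median centering moves all values of an array alike, so it had to give the same -0.066. Cyclic lowess moved the difference between the references by 0.17 for miR-26a and by 0.023 for miR-26b, and the sign turned between these settings. These data do not order miR-26a and miR-26b by the size of their difference.

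The direction held for both members over all 20 settings that were run, while the size did not. Some settings reused the same values and could not move a difference. These were the filter to miRNAs above background, the fit without an intensity trend and the replicate block. In the log2 values that the authors deposited, miR-26a was 9.88 and 9.87 in Reference 1, against 10.43 and 10.42 in Reference 2, a difference of -0.55. In the same values miR-26b was 9.37 and 9.31 in Reference 1, against 9.93 and 9.88 in Reference 2, a difference of -0.57. Both exceed the differences recomputed here from the scanner signals by over 1.5 times. The background-subtracted processed signal, scaled to the 75th percentile of each array, gave -0.83 for miR-26a and -0.78 for miR-26b. The smallest differences were -0.22 for miR-26a and -0.30 for miR-26b. Leaving out flagged spots array by array ended both calls, with -0.25 for miR-26a (adjusted p = 0.601 in limma) and -0.74 for miR-26b (adjusted p = 0.0649).

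In that last setting the level depended on which spots remained. The array software flagged 1 to 3 of the 20 spots of a member on each array. Removing spots unequally from the 2 probes moved the median over the remaining spots from between the probes into one of them. For miR-26a the level changed by 0.38 and -0.38 in the Reference 1 samples and by 0.23 and -0.24 in the Reference 2 samples. For miR-26b it changed by -0.40 and -0.35 in Reference 1 and by -0.23 and 0.27 in Reference 2. With the same spots left out but the probes given equal weight, the differences were -0.22 for miR-26a (adjusted p = 1.58e-04 in limma) and -0.37 for miR-26b (adjusted p = 1.69e-06).

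**Figure D3:**
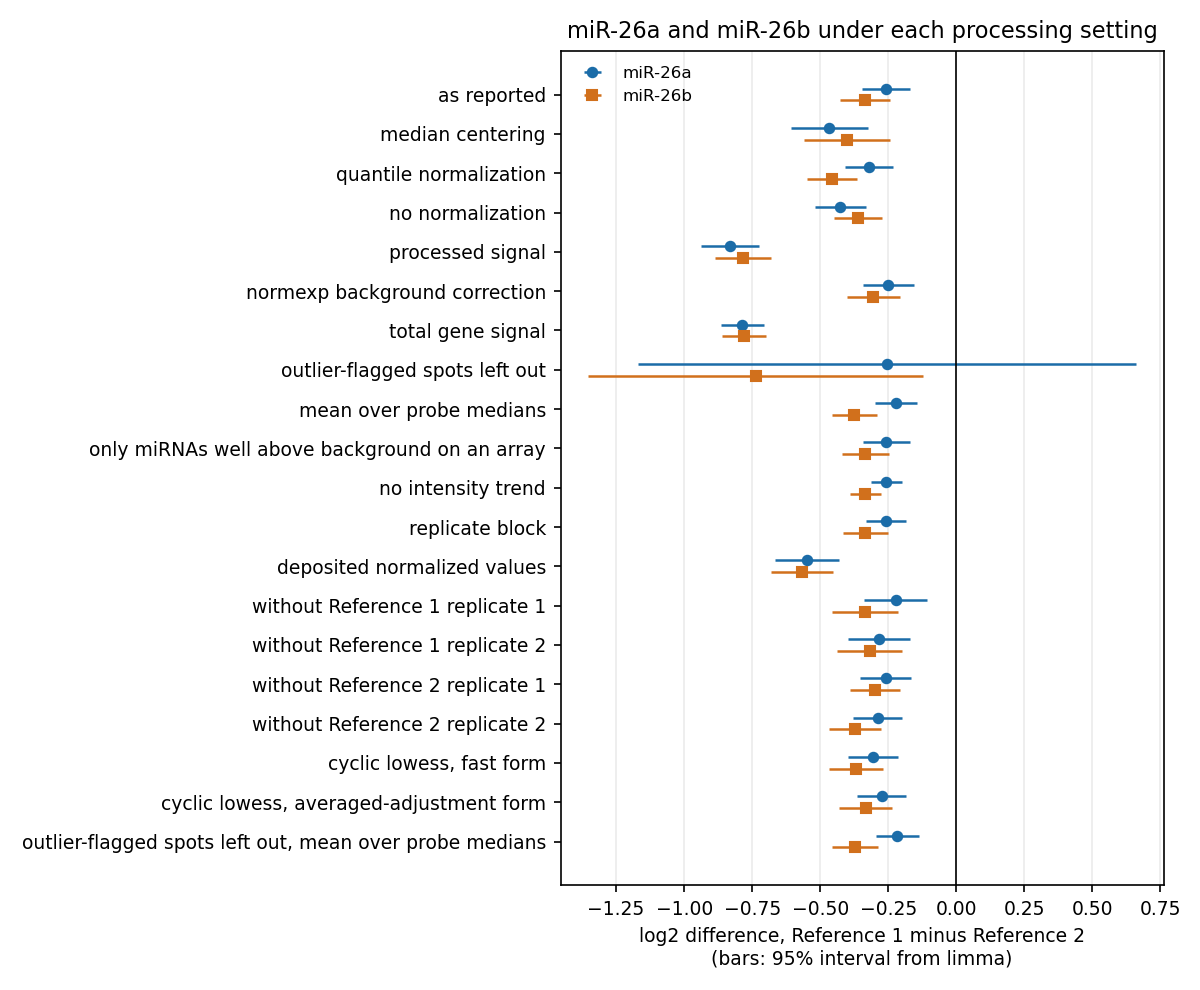
Log2 difference of miR-26a (circles) and miR-26b (squares), Reference 1 minus Reference 2 (horizontal axis), under each processing setting (vertical axis), with bars for the 95% interval from limma. Every symbol lies below 0, between -0.83 and -0.22, and the interval of miR-26a crosses 0 only where flagged spots were left out array by array.

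After cyclic lowess the difference of the family was modest beside those of most miRNAs tied to single tissues. This contrast depended on the scaling. The liver miRNA miR-194 was at -0.85 after cyclic lowess, against -0.26 for miR-26a and -0.33 for miR-26b. With median centering it was at -0.46, against -0.47 for miR-26a and -0.40 for miR-26b. Lists of miRNAs known from the pooled tissues differed in the direction of the labels, apart from the ovary list, which was split. Over all mouse miRNAs, 28.3% were called lower and 29.9% higher, and over those well above background on an array 41.7% and 49.4%. All 5 heart, all 3 liver and both lung vessel miRNAs were lower in Reference 1, with medians of -2.45, -2.14 and -0.95, and 1 of the lung vessel miRNAs was not well above background on any array. All 5 testis and all 4 embryo miRNAs were higher, with medians of 1.78 and 2.30. The testis miRNAs miR-741 and miR-743a and the embryo miRNAs miR-127, miR-379 and miR-410 were not well above background on either Reference 2 array. The heart miRNAs miR-208a and miR-208b were not so on either Reference 1 array. Only a bound was measured there, and these medians include such values. Of the 2 ovary miRNAs miR-202-3p was higher, though not well above background on either Reference 2 array, and miR-202-5p was called lower without being well above background. The blood cell list, which includes the red cell miRNAs miR-144 and miR-451, was lower in 7 of 7. Its summed signal, not normalized, was 3478 to 3564 in Reference 1, against 16037 to 17147 in Reference 2. Most of that sum was miR-451 alone, at 2807 and 2771 in Reference 1, against 13779 and 14556 in Reference 2. The part of blood cells in the miR-26 difference was not tested.

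Among all mouse miRNAs, 329 of 566 differed, 169 higher and 160 lower, so that 51.4% of the calls were higher. That share was 35.7% with median centering and 69.2% with no normalization. The median difference of the 259 miRNAs above background on an array was 0.068, against 0.26 with median centering and 0.30 with no normalization. Relative to that median miR-26a stood at -0.33, against -0.73 under either other scaling, and miR-26b at -0.40, against -0.66 under either. Median centering moves all values of an array alike, so both of these scalings had to give the same distances and the same ranks. Of the 259 miRNAs, 91 had a difference below that of miR-26a and 82 a difference below that of miR-26b, or 35.1% and 31.7%. These shares were 20.5% for miR-26a and 22.0% for miR-26b with median centering and with no normalization, and 23.4% and 23.0% in the deposited values, so that the place of the family among the miRNAs depended on the scaling. Among the 144 miRNAs above background on every array, as both members were, the median difference was -0.23, close to the values of the family.

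The miRNAs whose profile was most like that of a member were sought by the Euclidean distance between the 4 centred log2 values, among the 143 other miRNAs above background on every array. Nearest to miR-26a were miR-429, a member of the miR-200 family of epithelial miRNAs (distance 0.043, difference -0.23), miR-140*, the star strand of the cartilage miRNA miR-140 (0.050, difference -0.30), and miR-145, a smooth muscle miRNA (0.052, difference -0.22). Nearest to miR-26b were miR-181c (0.032, difference -0.37), miR-7a, a miRNA of neural and endocrine cells (0.035, difference -0.33), and miR-96, known from sensory epithelia (0.051, difference -0.31). The members lay 0.092 from each other. The likeness over 4 samples depended on the scaling. With median centering and with no normalization all 6 of these miRNAs had a difference above 0, reaching 0.35 for miR-145 and 0.19 for miR-429, while miR-26a and miR-26b stayed below 0. No shared property follows from such distances.

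miR-26 belongs to a list of miRNAs that Myc is known to repress, of which 19 others were on the array. Of these, 9 were lower in Reference 1, 9 were higher and 1, miR-29a, was not called. All 19 were well above background on an array, and of the 259 such miRNAs 41.7% were called lower and 49.4% higher. Of the 144 miRNAs above background on every array, 82 were called lower and 49 higher. The median difference of the list was 0.026, against 0.068 over these 259 miRNAs and -0.0069 over all 566 mouse miRNAs. It was -0.23 over the 144 miRNAs above background on every array. The split depended on the scaling and the signal used. It was 4 higher and 11 lower with median centering, 5 and 11 with no normalization, 3 and 16 with the total gene signal, 3 and 15 with the processed signal and 5 and 11 in the authors' log2 values. Over all mouse miRNAs tested the calls were 178 higher and 320 lower with median centering and 164 and 73 with no normalization. They were 88 and 86 with the total gene signal and 83 and 85 with the processed signal. The authors' log2 values gave 183 and 194. The list's median was -0.29 with no normalization, -0.33 with median centering, -0.68 with the processed signal, -0.64 with the total gene signal and -0.32 in the authors' log2 values. Over the tested miRNAs well above background on an array, the median was 0.30, 0.26, -0.043, -0.0013 and 0.12 in the same order. The lowest was miR-146a, which restrains innate immune signalling, at 6.61 and 6.63 in Reference 1, against 8.19 and 8.11 in Reference 2 (difference -1.53). Next came miR-30d, at 6.57 and 6.55 in Reference 1, against 8.05 and 8.06 in Reference 2 (-1.50). miR-29c, which targets collagens, was 8.25 and 8.11 in Reference 1, against 9.61 and 9.55 in Reference 2 (-1.40). All 4 miR-30 miRNAs of the list were lower, and the groups of these 3 miRNAs were separated by over 1 log2 unit. miR-150 was also called lower but was not well above background on either Reference 1 array, so that only a bound was measured there.

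The highest of the list were let-7a, a promoter of differentiation, miR-195 of the miR-15 family, and miR-34a, a target of p53. For let-7a the levels were 11.78 and 11.80 in Reference 1, against 10.99 and 11.03 in Reference 2, a difference of 0.78 that turned to -0.12 with the total gene signal. For miR-195 they were 9.86 and 9.95 in Reference 1, against 9.13 and 9.24 in Reference 2 (0.72), and for miR-34a 8.77 and 8.82 in Reference 1, against 8.07 and 8.08 in Reference 2 (0.72). The 2 miR-26 miRNAs lay between these ends of the list, on the side of the miR-30 miRNAs in sign. Leaving out flagged spots array by array left 6 of the 19 called, 2 higher and 4 lower. With the same spots left out but the probes given equal weight, 18 of the 19 were called, 9 higher and 9 lower.

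A second list held 4 other miRNAs known to target Ezh2, the histone methyltransferase that miR-26a represses, and it was split as well. All 4 were called, where 58.1% of all mouse miRNAs and 91.1% of those well above background on an array were called. miR-101a was 7.53 and 7.48 in Reference 1, against 8.52 and 8.52 in Reference 2, a difference of -1.01. miR-101b was 6.29 and 6.19 in Reference 1, against 7.39 and 7.45 in Reference 2, a difference of -1.17. Both were thus lower in Reference 1, with miR-26a and miR-26b. miR-214 went the other way, at 6.90 and 6.96 in Reference 1, against 6.37 and 6.29 in Reference 2 (difference 0.60). miR-138 also passed the test as higher, but none of the 4 arrays measured it well above background, and it was not called with no normalization. Ezh2 itself was not measured by these arrays.

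**Figure D4:**
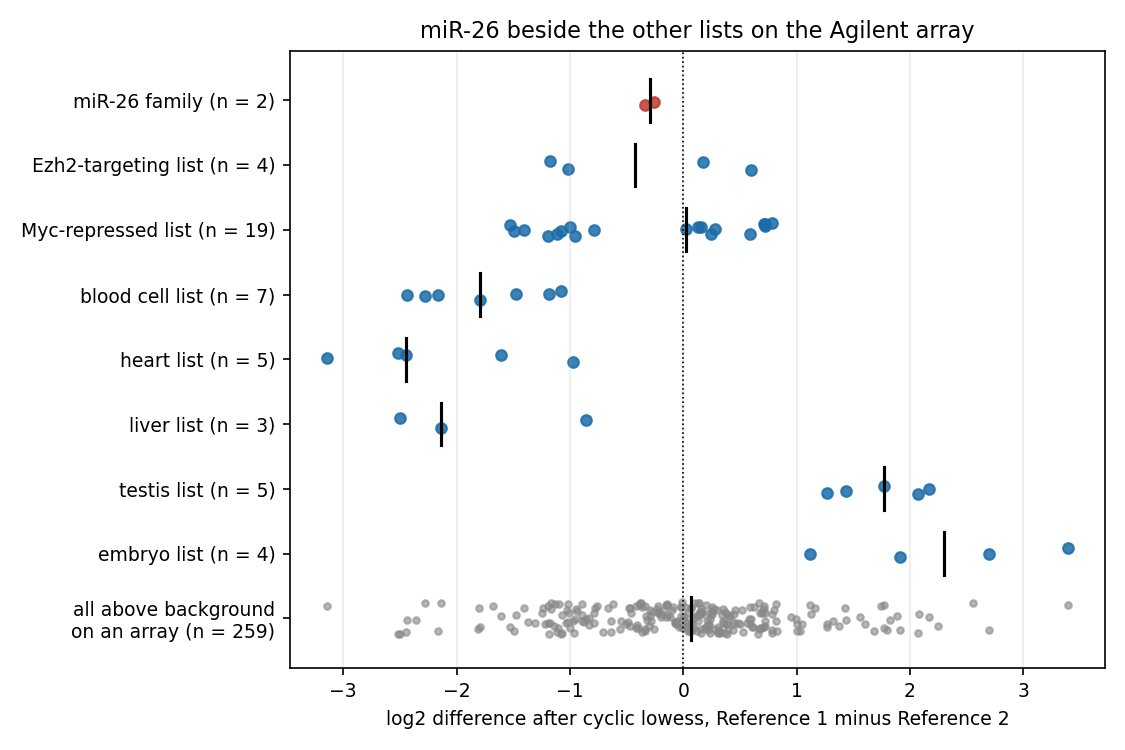
Log2 difference after cyclic lowess, Reference 1 minus Reference 2 (horizontal axis), for the miRNAs of the lists shown (vertical axis, with the number of miRNAs). The lung vessel and ovary lists are not shown. They hold miR-126-5p at -0.21 and miR-202-5p at -0.057, nearer to 0 than the family and not well above background on any array. Each point is 1 miRNA, the vertical bar is the median of its row and the dotted line marks 0. The miR-26 points, at -0.26 and -0.33, lie within the Ezh2-targeting and Myc-repressed ranges and nearer to 0 than any point of the heart, liver, blood cell, testis or embryo rows. That order holds for the scaling shown. With median centering miR-26a was at -0.47 and miR-26b at -0.40, with the liver miRNA miR-194 at -0.46.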

How the data were processed

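The Agilent arrays were scanned by the authors and read with Agilent Feature Extraction 9.5.3.1, and the deposited scanner files give the intensity of each spot, not normalized. The authors also deposited log2 values per miRNA, made by cyclic lowess of signals without background subtraction. These correlated with the values recomputed here (Pearson r of at least 0.999 over 560 miRNAs within each array). Such a correlation follows the range of levels and does not check the difference between the references. That difference was -0.55 for miR-26a and -0.57 for miR-26b in the deposited values, against -0.26 and -0.33 here. The authors hybridized further aliquots, of which 2 per reference were chosen at random, and the others were not analysed here.

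The log2 median signal of the 11540 non-control spots was normalized by cyclic lowess (pairs of arrays in turn, 3 iterations), and the median was taken over the spots of each miRNA. Differences were tested with limma 3.58.1 in R 4.3.3, with an intensity trend and Benjamini-Hochberg adjustment over 566 mouse miRNAs. A miRNA was well above background on an array if over 50% of the spots of any of its probes were so flagged. The number of arrays limits the precision. All 4 arrays shared a slide and a scan. Mature and hairpin sequences came from RefSeq, and no probe sequence was used.

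The members, lists and tests were chosen with earlier results of these data known. Named miRNAs were the family and its star strands, the Ezh2-targeting list, the 3 highest and 3 lowest of the Myc-repressed list and the 3 profiles nearest to each member; the Myc-repressed miRNAs miR-29a and miR-150 and the tissue list miRNAs were named after their values were seen. Alternatives changed the normalization, signal, spots, summary, filter, variance model, block and replicates, and are given with the limits of the data. The authors' methods describe another form of cyclic lowess, in which the adjustments of an array against all others are averaged before they are applied; that form gave -0.27 for miR-26a and -0.33 for miR-26b. That form, a faster form and the equal weighting of probes without flagged spots were added after seeing the data. Exiqon, NCode and LC Sciences values carry no miRNA names here and were not used.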

Additional observations from a re-analysis of the deposited data

How the results depend on the processing

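Over the 19 alternatives, 18 kept the call of miR-26a and 18 that of miR-26b, and none turned the sign of either. The filter to miRNAs above background, the fit without an intensity trend and the replicate block could not turn it, since they reused the same values. Both calls were lost when flagged spots were left out array by array, with -0.25 for miR-26a and -0.74 for miR-26b. The replicate numbers do not pair the samples (correlation of same-numbered deviations 0.061). The fit with the replicate block gave -0.26 for miR-26a (adjusted p = 7.92e-11 in limma) and -0.33 for miR-26b (adjusted p = 1.56e-14). In this balanced layout the block cannot change a difference, and the smaller p-values are not read as stronger evidence. Leaving out 1 sample at a time, where the lone sample is assumed to vary like the other reference, gave -0.29 to -0.22 for miR-26a (highest adjusted p 0.00248 in limma) and -0.37 to -0.30 for miR-26b (highest adjusted p 0.00144). The contrast of miR-26a minus miR-26b turned from 0.077 to -0.066 with no normalization, and by construction to the same value with median centering. It was -0.048 with the processed signal and -0.0055 with the total gene signal, and rose to 0.48 where flagged spots were left out array by array. The number of mouse miRNAs that differed was 498 with median centering, 168 of 211 tested with the processed signal and 174 of 216 with the total gene signal, which cover fewer miRNAs, and 282 to 325 without 1 sample. The Myc-repressed count was 6 where flagged spots were left out array by array and 18 where they were left out with probes weighted equally. The Ezh2-targeting count was 3 to 4 over all alternatives. The cause of the change with the scaling was not tested. The star strand of miR-26b, with spots below the present threshold on every array, passed the test in 8 of 16 alternatives, with -0.11 (median centering), -0.12 (quantile normalization), -0.075 (deposited values), -0.064 and -0.061 (other forms of cyclic lowess) and -0.050 (probes weighted equally, with or without flagged spots), and ranged from -0.070 without the second sample of Reference 2 to -0.034 without the first. With 2 aliquots of a single pool per reference, no biological variation was measured, and dim probes limit what can be said below the present threshold.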
